A study of Mus musculus with 2 samples.

Results

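The genes examined encode the receptor chains of the cytokines interleukin-18 (IL-18), interleukin-1 (IL-1), its relatives IL-33 and IL-36, and interleukin-12 (IL-12) in cultured mouse CD8+ T cells. They were chosen by name as Il18r1, Il18rap, Il1rl1, Il1rl2, Il1r1, Il1r2, Il12rb1 and Il12rb2, with earlier results of these arrays in view, and a probe set counted only where the platform annotation gives exactly that symbol. Of the 8 names, 7 had such a probe set, among 22180 genes with a value, and Il1rl1 was not analysed here. Each of the 7 was read by 1 probe set.

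There were 2 arrays, 1 for each group. Both held RNA of naive CD8+ T cells activated with beads carrying antibodies to CD3 and CD28 in recombinant human IL-2 at 100 U/mL. The control culture received dimethyl sulfoxide (DMSO), the solvent, and the treated culture received bezafibrate at 30 µM for the entire culture, which ran to day 13. Bezafibrate, a drug of the fibrate class given to lower blood lipids, is an agonist of the nuclear receptors called PPARs. The labels give no mouse strain, age or sex and no number of animals, and the cells were an expanded culture rather than cells taken directly from a mouse. Since each group has a single array, values have no replicate error, no test was possible, and a ratio compares arrays rather than conditions.

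These receptors decide whether a T cell can respond to inflammatory cytokines without its antigen. IL-18 is bound by the chain encoded by Il18r1 and signals only when the accessory chain encoded by Il18rap joins, and IL-1, IL-33 and IL-36 use receptors of the same design in which the accessory chain is encoded by Il1rap. These receptors signal through the adaptor MyD88 to NF-κB, whereas the IL-12 receptor, made of the chains encoded by Il12rb1 and Il12rb2, signals through the kinases JAK2 and TYK2 to the transcription factor STAT4. In CD8+ T cells, IL-12 and IL-18 together are known for inducing interferon-γ.

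As a reference for silent genes, 1390 genes of smell and pheromone receptors were taken. The background limit was the 95th percentile of their log2 levels, 4.71 for control and 4.68 for bezafibrate, and a gene with a lower level is said to be within background. The floor was the median of all named genes on each array (4.88 and 4.85, in the same order), and 11448 genes exceeded it on at least 1 array. In the marker list for CD8+ T cells, all 7 genes with a value were above the background limit on both arrays, beside 51.5% of all named genes. The list holds Cd8a and Cd8b1 beside genes that other T cells also express, such as Cd3e. Of the 7, 6 read lower with bezafibrate and 1, Cd28, higher, beside 49.6% lower and 48.4% higher among all genes above the floor. Their log2 ratios ran from −0.30 for Cd3d to 0.15 for Cd28, with a median of −0.14.

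Both chains of the IL-18 receptor and both chains of the IL-12 receptor were above background on both arrays, whereas the IL-1 receptor chains Il1r1 and Il1r2 and the IL-36 receptor chain Il1rl2 were within background on both. Above background were thus 4 of the 7 receptor chains, beside 51.5% of all named genes. The IL-18 receptor chains read higher with bezafibrate, Il18rap by 1.56-fold and Il18r1 by 1.33-fold. For Il12rb1 the ratio was 1.17-fold and for Il12rb2 1.02-fold. Since the cultures were measured in bulk, a difference in the share of cells of a type and one in RNA per cell cannot be told apart.

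**Figure D1:**
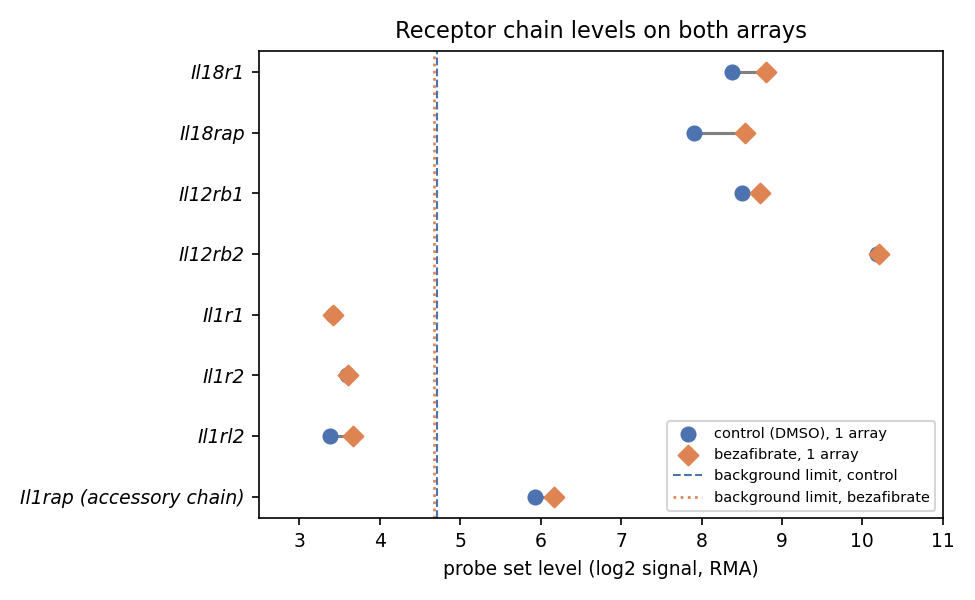
Log2 level of the probe set of each receptor chain and of the accessory chain gene Il1rap (x axis) on the control array (circles) and the bezafibrate array (diamonds), with the background limit of each array as a vertical line. Il18r1, Il18rap, Il12rb1, Il12rb2 and Il1rap lie to the right of both limits, and Il1r1, Il1r2 and Il1rl2 to the left, between 3.38 and 3.67.

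Il18rap (probe set 17212252), the accessory chain without which IL-18 does not signal, read 7.91 (log2 level) in control and 8.55 with bezafibrate. The difference was 0.64 on the log2 scale. Il18r1 (probe set 17212229), the chain that binds IL-18, had levels of 8.38 and 8.80, a difference of 0.42. Both chains were therefore far above the limits on each array, by at least 3.20 log2 units, and both read higher on the bezafibrate array. The difference between their log2 ratios, 0.64 for the accessory chain and 0.42 for the binding chain, has no replicate error to be set against.

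Among all genes above the floor, 95% had log2 ratios between −0.42 and 0.41, with a median of 0.00. Il18rap stood at rank 56 from the top of the 11448, and Il18r1 at rank 281. Among the 1876 genes whose mean level lay within 0.5 log2 units of that of Il18rap, 5 (0.267%), Il18rap included, had a ratio as high. Of the 1538 genes as near to Il18r1, 16 (1.04%), Il18r1 included, did. The robust SD of the log2 ratios was 0.18 in each of these sets, which contains both array noise and any real differences. At a limit of 1.5-fold, 1 of the 4 receptor chains above the floor was higher, Il18rap, and 0 were lower, beside 0.664% of all genes above the floor that were at least 1.5-fold higher and 0.524% at least 1.5-fold lower. After subtraction of the typical ratio of genes similar in level and length, Il18rap stood at 0.564 (log2 ratio), under the 1.5-fold limit of 0.585. At 2-fold, 0 of the 4 were higher and 0 lower, beside 0.0874% of genes higher and 0.0% lower. The chains were chosen with this comparison known, so the count is a description.

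**Figure D2:**
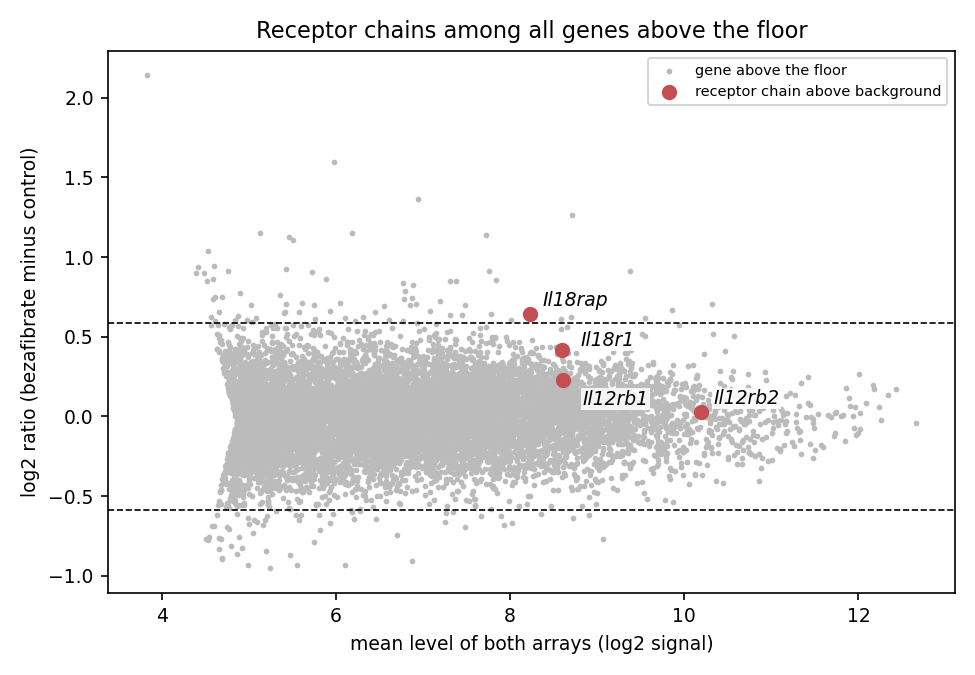
Log2 ratio of bezafibrate over control (y axis) against the mean log2 level of both arrays (x axis) for the 11448 genes above the floor (grey), with the 4 receptor chains above background in red and 1.5-fold differences as dashed lines. Il18rap lies above the upper line, Il18r1 below it at 0.42, and Il12rb2 close to 0.

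Since the IL-18 receptor chains read higher together, the sequence just before 1 annotated start of each is shown. Il18r1 had 3 listed starts, of which the most upstream was used. Beside them are the sequences of Il1rl2, a cluster gene within background, and of Il12rb2, a chain with nearly equal levels. The sequences are RefSeq's for build GRCm38.p6, 5′ to 3′ on the gene's strand, and end at the edge of the annotated span of the gene. They hold up to 250 bases and leave out any base inside the annotated span of a gene, which shortens the window of Il18r1 to 133 bases because the span of Il1rl1 ends inside it, and that of Il12rb2 to 145 bases because the longest annotated span of Il12rb2 itself begins upstream of the start that RefSeq's window was built on. They lie at chr1:40465419-40465551 (plus strand) for Il18r1, chr1:40515112-40515361 (plus strand) for Il18rap, chr1:40324339-40324588 (plus strand) for Il1rl2 and chr6:67376294-67376438 (minus strand) for Il12rb2. Capitals mark a match to any of the 6 motifs named after them.
Il18r1: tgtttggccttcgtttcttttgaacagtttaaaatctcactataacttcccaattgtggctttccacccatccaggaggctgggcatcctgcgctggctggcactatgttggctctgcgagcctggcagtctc
Il18rap: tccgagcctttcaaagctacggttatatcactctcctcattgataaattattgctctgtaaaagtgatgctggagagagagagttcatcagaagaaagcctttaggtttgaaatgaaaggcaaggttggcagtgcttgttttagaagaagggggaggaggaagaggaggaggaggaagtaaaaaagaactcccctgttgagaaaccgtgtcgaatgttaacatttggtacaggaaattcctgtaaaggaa
Il1rl2: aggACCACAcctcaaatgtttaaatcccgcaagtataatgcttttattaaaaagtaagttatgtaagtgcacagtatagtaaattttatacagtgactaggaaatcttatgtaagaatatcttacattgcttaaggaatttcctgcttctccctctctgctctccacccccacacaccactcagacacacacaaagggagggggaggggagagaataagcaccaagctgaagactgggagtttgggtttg
Il12rb2: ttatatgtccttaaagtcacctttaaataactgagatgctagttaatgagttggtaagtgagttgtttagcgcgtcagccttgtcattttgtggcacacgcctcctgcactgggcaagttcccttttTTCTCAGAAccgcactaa

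The motifs, searched on both strands, were TCACACC of T-box factors such as T-bet, TTCNNNGAA of STAT factors, TGANTCA of AP-1, TGTGGT of RUNX factors, AGGTCA of nuclear receptors, and DR1, the direct repeat of AGGTCA that PPARs bind with their partner RXR, so that every DR1 match is also an AGGTCA match. The windows shown for Il18r1 and Il18rap held 0 matches, and the other listed starts of Il18r1 were not searched. That of Il12rb2 held TTCTCAGAA, a match to the STAT motif, 9 bases from the end of the window. That of Il1rl2 held ACCACA, the RUNX motif on the other strand, 241 bases from the end. Of 27025 promoters, 3.99% held the STAT motif in a window of 145 bases and 14.2% the RUNX motif in one of 250 bases. In windows of 250 bases the shares were 3.31% for the T-box motif, 6.87% for AP-1, 13.8% for AGGTCA and 0.037% for DR1. In windows of 133 bases, the length shown for Il18r1, they were 1.7%, 3.77%, 7.53% and 0.0296%, with 3.66% for the STAT and 7.54% for the RUNX motif. A match is a description of letters and not a site of binding, and a window without one shows only that these letters are not in it.

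The IL-18 receptor genes are the last of a row of related receptor genes on mouse chromosome 1, in the order Il1r2, Il1r1, Il1rl2, Il1rl1, Il18r1 and Il18rap. The other measured genes of the row differed from the IL-18 receptor chains in level. Il1r2 (probe set 17212174), which encodes the decoy receptor of IL-1, had levels of 3.59 and 3.61. Il1r1 (probe set 17212185), the signalling receptor of IL-1, had 3.41 on both arrays, one of the 1904 probe sets (5.63%) with exactly equal values. Il1rl2 (probe set 17212199), the binding chain of the IL-36 receptor, had 3.38 and 3.67. All 6 of these levels were at least 1.01 log2 units under the limit of their array. The ratio of Il1rl2 was 0.28, inside the robust SD of 0.31 of the ratios of the background genes. Among the 3978 genes of like level the robust SD was 0.25, below this ratio. Of those genes, 481 (12.1%), Il1rl2 included, had a ratio as high.

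Of the 6 protein-coding genes on each side of the row, 5 were above the floor, beside 51.6% of all named genes, with log2 ratios from −0.10 to 0.12. Next to Il1r2, Map4k4, a kinase of stress signalling, had levels of 8.42 and 8.54, a ratio of 0.12. Rnf149, a ubiquitin ligase, had 8.19 and 8.25. Both were above background, as were Cnot11, Mfsd9 and Mrps9, with ratios of −0.08, −0.10 and 0.12. On the other side, Slc9a4 and Slc9a2, which encode sodium-proton exchangers and directly follow Il18rap, were within background, at 4.02 and 4.05 and at 3.63 and 3.77. Over all 12 neighbours the median ratio was 0.06, with 9 higher and 3 lower, beside 44.7% of all named genes higher, and the range ran from −0.21 for Creg2 to 0.27 for Rfx8, both within background. The ratios of Il18r1 and Il18rap lay above those of all 12 neighbours and of the other 3 measured genes of the row. With 1 array per group, and chains chosen with earlier results in view, that order is a description and has no test.

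**Figure D3:**
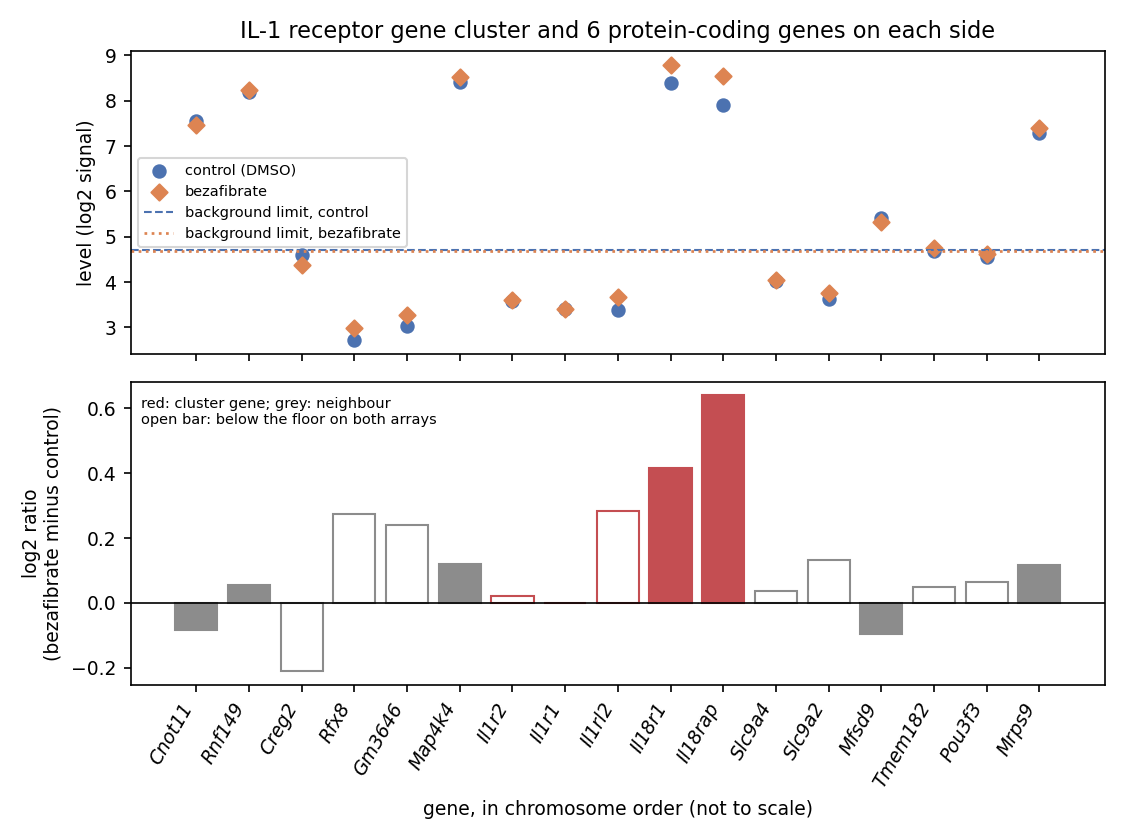
Log2 levels on both arrays (top) and log2 ratios (bottom) of the receptor gene row and the 6 protein-coding genes on each side, in chromosome order and not to scale; Il1rl1 is not shown, and open bars are genes below the floor on both arrays. Il18r1 and Il18rap have the tallest bars, 0.42 and 0.64, against a range of −0.21 to 0.27 among the 12 neighbours.

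Il12rb1 (probe set 17502051), the IL-12 receptor chain that is shared with the IL-23 receptor, had levels of 8.50 and 8.73, a ratio of 0.23. Of the 1525 genes of like level, 154 (10.1%), itself included, had a ratio as high. Il12rb2 (probe set 17467323), the chain specific to the IL-12 receptor, had 10.18 and 10.20, a ratio of 0.02. The higher reading of Il12rb1 was thus shared by many genes of its level, and the 2 readings of Il12rb2 nearly coincided. The nearest genes of Il12rb1 on chromosome 8, 3 on each side, were all above background, with ratios from −0.32 for Mast3, the gene next to it, to 0.25 for Pik3r2. Next to Il12rb2 on chromosome 6 lies Il23r, the specific chain of the IL-23 receptor, which was within background at 3.13 and 2.86. Its other measured neighbours were above background: Serbp1 had a ratio of 0.14, Rpia −0.03 and Gng12 0.31 (−0.17 on a second probe set, within background).

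The partner chain, the ligands and the inhibitors were read next. The accessory chain gene Il1rap (probe set 17324522) had levels of 5.93 and 6.17, a ratio of 0.24, above background on both arrays. Its 2 other probe sets were within background, with ratios of 0.09 and 0.00. For the IL-1 and IL-36 receptors the accessory chain was thus above background and the binding chain was not. Il18bp, which encodes the soluble inhibitor of IL-18, read 6.98 on both arrays, and Sigirr, an inhibitory receptor of the family, 6.40 and 6.38. The ligand Il18 was within background at 2.86 and 2.70, as were Il1a at 3.57 and 2.92, Il1b at 3.51 and 3.30, the IL-1 receptor antagonist Il1rn at 4.52 and 4.45, and Il33 at 3.86 and 3.80. Il12a and Il12b, the subunits of IL-12, were within background too, at 4.08 and 4.38 and at 4.16 and 4.37. Casp1, the protease that matures IL-18 and IL-1β, had 6.71 and 6.48, and Nlrp3, the inflammasome sensor, passed the limit on the bezafibrate array alone, at 4.40 and 4.72.

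Of the 14 genes of the IL-12 pathway list with a value, which holds both IL-12 receptor chains, 10 were above the floor. Ebi3, at 4.67 and 4.92, passed the floor on the bezafibrate array alone, which favours a ratio above 0. Its ratio was 0.25. The other 9 passed it on both arrays, and all 9 had a ratio above 0, from 0.01 for Tyk2 to 0.23 for Il12rb1, with a median of 0.10 and 0 at least 1.5-fold different. Of all genes above the floor on both arrays, 48.4% had a ratio above 0, with a median of 0.00. Stat4, the transcription factor activated by IL-12, had levels of 8.93 and 8.95. The kinase genes Jak2 and Tyk2 had 8.36 and 8.43 and 7.68 and 7.69. Signalling genes of the IL-12 receptor were thus present at nearly equal levels. Il6st and Il27ra, receptor chains of related cytokines, had ratios of 0.16 and 0.10, Stat3 had 0.13, and a second probe set of Ebi3, within background, had 0.01.

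Of the 18 measured genes from MyD88 to NF-κB, 17 were above the floor, with 12 higher, 5 lower, a median log2 ratio of 0.08 and 0 at least 1.5-fold different. Among all genes above the floor, 48.4% were higher and 49.6% lower, with 0.664% at least 1.5-fold higher and 0.524% at least 1.5-fold lower. Myd88, the adaptor of the IL-18 receptor, had levels of 7.75 and 7.71. Traf6, the ubiquitin ligase downstream of it, had 7.82 and 7.99. The highest ratios above the floor were 0.20 for Nfkbiz, a nuclear cofactor of NF-κB, and 0.17 for Traf6 and Ikbkg, and the lowest was −0.15 for Tnfaip3, an inhibitor of the pathway. Among kinase genes above the floor, Irak2 had −0.07, Irak1 0.02, Map3k8 0.04, Ikbkb and Mapk14 0.10 each, Mapk8 0.15 and Map3k7 0.16. Irak3, within background, had 0.23. Irak4, Chuk and Nfkb1 had no probe set naming them alone and were not read. All 17 ratios above the floor lay nearer to 0 than those of the IL-18 receptor chains. Those chains were chosen with earlier results of these arrays in view, so the contrast is a description.

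Of 20 genes that IL-12 and IL-18 are known to induce or that respond to cytokines in T cells, 17 were above the floor, with 5 higher, 11 lower and a median log2 ratio of −0.09, beside 49.6% lower and a median of 0.00 among all genes above the floor. Ifng, which encodes interferon-γ, was within background at 4.44 and 4.38. Tbx21, which encodes the transcription factor T-bet, had levels of 6.47 and 6.44. Xcl1, a chemokine for dendritic cells, was at least 1.5-fold lower, at 7.65 and 7.05, as were 0.524% of all genes above the floor. The chemokine genes Ccl4 and Ccl3 had ratios of −0.31 and −0.28, and Socs1 and Socs3, cytokine signalling inhibitors, had −0.30 each. A second probe set of Socs3, within background, had −0.11. Cish, another such inhibitor, had 0.25 on its brighter probe set and −0.34 on the other, and Il2ra, a chain of the IL-2 receptor, 0.12.

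**Figure D4:**
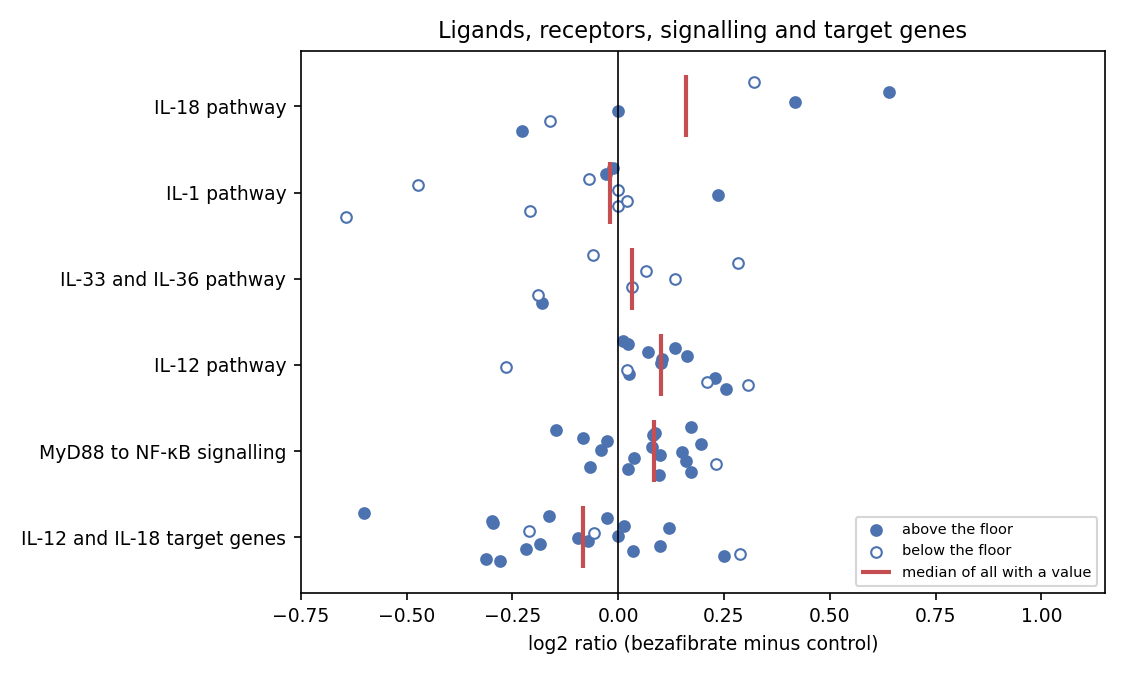
Log2 ratio of bezafibrate over control (x axis) of each gene in 6 lists of ligands, receptors, signalling and target genes, filled where above the floor and open where below, with the median of each list as a red line. Il18rap and Il18r1 are the rightmost points of the IL-18 list at 0.64 and 0.42, and the target list has its median at −0.08 over all 20 members.

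Other cells also carry these receptors, such as natural killer cells for IL-18 and IL-12, and mast cells and innate lymphoid cells for IL-33. Of the 6 natural killer cell markers with a value, 3 were above background on both arrays and 1, Tyrobp, on the bezafibrate array alone. The summed log2 level of the list was 40.40 in control and 39.65 with bezafibrate. Nkg7 and Eomes, which effector CD8+ T cells also express, were among the 3, and the third, Fcer1g, had levels of 6.57 and 5.64, whereas the defining receptor genes Ncr1 and Klrb1c were within background on both arrays, at 3.16 and 3.22 and at 4.26 on each. By count, 3 of the 6 read higher, 2 lower and 1 equal, with a median log2 ratio of 0.02. Without Fcer1g the summed level was 33.83 in control and 34.01 with bezafibrate. Of the 6 mast cell and basophil markers, only Kit was above background, with summed levels of 18.17 and 18.24 for the list, and of the 6 measured markers of type 2 innate lymphoid cells, Gata3 and Rora were above background on both arrays and Il13 on the bezafibrate array, with summed levels of 30.02 and 30.00. Of the 5 B cell markers with a value, 2 were above background, Cd79b with a ratio of −0.55 and Ighm with −0.33 on the brightest of its 7 probe sets. The list's summed levels were 25.92 and 24.94. Of the 5 dendritic cell markers, Cd209a was above background on both arrays, with a ratio of −0.45 on the brighter of its 2 probe sets. Zbtb46 was above it on the control array alone, and summed levels of the list were 26.44 and 25.71. Among the 3 CD4 T cell markers with a value, only Foxp3 was above background, at 4.95 and 5.02. All 3 read higher, beside 44.7% of all named genes, Cd4 with a ratio of 0.41, and summed levels were 11.86 and 12.35. For macrophages and monocytes, Csf1r and Cd68 of 5 markers were above background, 4 read higher and 1 lower, and summed levels were 21.36 and 21.55. All 5 neutrophil markers were within background, with summed levels of 19.59 and 18.82. Kit, Rora, Il13, Cd79b, Zbtb46, Tyrobp, Foxp3 and Csf1r were under the 99th percentile of the background genes (5.73 and 5.74) on both arrays, as was Fcer1g with bezafibrate. The summed levels include markers within background. The part of these other cells in the IL-18 receptor ratios was not tested.

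Likeness was measured as the distance between genes in the 2 log2 levels. Nearest to Il18r1 were Dtl, a substrate receptor of a ubiquitin ligase in DNA replication, at a distance of 0.017, the p53 regulator gene Mdm4 at 0.038 and the RNA polymerase III subunit gene Polr3b at 0.051. Nearest to Il18rap were Zfp871 at 0.12, Gas2l3 at 0.17 and Etnk1 at 0.17, whose own ratios were 0.48, 0.41 and 0.40. Over 2 arrays such a distance describes level and ratio alone.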

How the data were processed

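Total RNA of 1 control and 1 bezafibrate culture (100 ng each) was amplified with a whole-transcript kit and hybridised to Affymetrix arrays, per the labels' protocols. The authors deposited log2 signals, 1 per probe set and array. Per the submitters' processing notes, these come from RMA and the Affymetrix Expression Console; the sources used here give neither versions nor a genome build. RMA equalises the arrays, which removes any change shared by most genes, and shrinks differences between dim probe sets, so their ratios can be understated. Dim genes also scattered more here: the robust SD of the log2 ratios was 0.31 among the background genes, against 0.18 among genes near the level of Il18rap.

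Of 33793 probe sets with values, 23521 named 1 gene in the platform annotation and were used, 1814 named several and 8458 none. For a gene with several, the probe set with the highest mean signal was taken, which gave 22180 genes. RefSeq of assembly GRCm38.p6 gave the order of neighbouring genes, gene lengths and promoter sequences; 7 of the 8 receptor chains matched a promoter entry. The number of arrays limits the precision, and with 1 array per group no test was made.

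The members and lists were chosen with earlier results of these data known; the housekeeping list was written with the files at hand. All members were named, with fixed partner genes, the list members with the most extreme ratios, the nearest protein-coding genes, and the 3 genes closest in level to each interleukin-18 receptor chain. Alternatives were quantile normalization, a loess curve, housekeeping centring, subtraction of a trend in level and gene length (the median of 10 by 10 classes), other choices of probe set, and other floors and background limits. Python 3.11.15 with numpy 2.4.6, pandas 2.3.3, statsmodels 0.14.6 and matplotlib 3.10.9 was used, and the counting of genes past a fold was tested on simulated data.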

Additional observations from a re-analysis of the deposited data

How the results depend on the processing

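No paired analysis was possible because each group has 1 array, and no array could be left out. The log2 ratio of Il18rap ran from 0.564 to 0.649 over 7 alternatives and that of Il18r1 from 0.342 to 0.426. The lowest values came when a trend in level and gene length was subtracted, and there Il18rap fell below 1.5-fold (0.585). Il12rb1 ran from 0.217 to 0.299, and Il12rb2 from −0.0749, with that same subtraction, to 0.0395. With the 99th percentile of the background genes as the limit (5.73 in control and 5.74 with bezafibrate), or the median of all named genes, the same 4 receptor chains lay above it on both arrays and the same 3 below. With no floor, 285 genes were at least 1.5-fold higher and 276 lower, and 20 were at least 2-fold higher and 20 lower; with the floor at the 75th percentile of each array, 32 and 14 passed 1.5-fold, and 3 were at least 2-fold higher. With level and length subtracted, 1 gene was at least 2-fold lower, against 0. The IL-33 and IL-36 list had a median of −0.181 when only its member above the floor was kept, against 0.03. The scaling alternatives moved the median ratio, of all genes and of those above the floor, by less than 0.1. With choices made after seeing the data, the IL-12 list had a median of 0.102 over members above the floor on both arrays, and the natural killer list 0.0344 without Fcer1g.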
